A study of Homo sapiens with 12 samples.

Results

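Expression of 10 genes of the Polycomb and DNA methylation machinery was examined in 3 prostate cell lines. The genes were EZH2, EED, SUZ12, BMI1, DNMT1, DNMT3A, DNMT3B, UHRF1, TET1 and TET2, taken by name from the 58302 genes of the deposited expression table, which holds 1 row for each. RNA-sequencing covered 4 libraries of BPH-1, a benign prostate epithelial line, and 4 libraries each of DU145 and PC3, both prostate cancer (PCa) lines. All were labelled wild type (WT), with no treatment named, and all were grown in the same Dulbecco's medium with serum, penicillin and streptomycin before total RNA was taken. The study compared chloride channel genes between benign and cancer cells, and the same libraries allow that contrast for any gene. BPH-1 cells were immortalised with the large T antigen of a simian polyomavirus, PC3 came from a bone metastasis and DU145 from a brain metastasis, so each group is a single established line and not a sample of patients. Nothing stated whether the 4 libraries of a line came from separate cultures, so p-values measure the spread between libraries, which may be technical.

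Polycomb proteins keep genes silent through histone marks. Polycomb repressive complex 2 (PRC2), built on EZH2, EED and SUZ12, methylates lysine 27 of histone H3, and PRC1, which can hold BMI1, ubiquitinates histone H2A. DNA methylation is copied after replication by DNMT1, which UHRF1 guides to half-methylated sites, and is laid down anew by DNMT3A and DNMT3B, whereas the TET dioxygenases oxidise methylcytosine and so start its removal. In PCa, EZH2 is widely studied as a gene of advanced disease, and promoter methylation of genes such as GSTP1 is a common change.

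Promoter sequence was read from RefSeq (GRCh38.p14), which gave 22 promoters of 300 bases for the 10 genes. SUZ12, TET2 and DNMT3B are shown because these 3 genes were lower in both cancer lines in every setting tried. Each run covers 170 bases before the RNA start and the first 10 bases after it, 5′ to 3′ on the gene's strand, with every CG dinucleotide, the target of DNA methylation, in capitals.
SUZ12 (chr17:31936837-31937016, plus strand): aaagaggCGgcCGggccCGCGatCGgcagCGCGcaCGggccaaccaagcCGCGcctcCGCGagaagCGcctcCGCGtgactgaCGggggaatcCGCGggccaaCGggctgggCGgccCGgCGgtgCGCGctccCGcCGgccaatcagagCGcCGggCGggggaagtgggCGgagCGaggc
TET2 (chr4:105145705-105145884, plus strand): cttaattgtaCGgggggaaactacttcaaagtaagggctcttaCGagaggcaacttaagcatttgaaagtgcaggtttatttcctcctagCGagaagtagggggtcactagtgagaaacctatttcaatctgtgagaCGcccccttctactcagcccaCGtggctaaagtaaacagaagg
DNMT3B (chr20:32779682-32779861, plus strand): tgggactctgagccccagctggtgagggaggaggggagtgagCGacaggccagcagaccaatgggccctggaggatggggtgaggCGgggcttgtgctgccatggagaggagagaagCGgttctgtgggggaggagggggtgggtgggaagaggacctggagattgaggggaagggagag
The 3 windows differed widely in CG content. SUZ12 held 40 CG dinucleotides in its full 300 bases, the TET2 start shown held 13 and the DNMT3B start 3, against a median of 14 over the 35116 promoters of the table. RefSeq listed a further TET2 start with 35, and the DNMT3B start listed lies inside the deposited locus and not at its first base.

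DNMT1 and UHRF1 had the highest FPKM of the 10 genes. Their promoters and that of EZH2 also carry letters of the type bound by E2F factors, which drive genes of DNA replication, and are shown. Of 7 such 8-base words searched on both strands, TTTCGCGC was found in DNMT1 and UHRF1 and in 0.515% of all promoters, and TTTGGCGC in EZH2 and in 0.652%. TTTCCCGC was found in SUZ12 and UHRF1 (1.63% of all promoters) and TTCCCGCC in UHRF1 (3.16%). TTCGCGCC (0.960%), TTGGCGCC (1.02%) and TTTGGCGG (0.652%) were in none of the 22 windows. Some of these words overlap one another by several letters, and a match describes letters only. Capitals mark TTTGGCGC in EZH2, TTTCGCGC in UHRF1 and its other-strand form GCGCGAAA in DNMT1.
EZH2 (chr7:148884282-148884461, minus strand): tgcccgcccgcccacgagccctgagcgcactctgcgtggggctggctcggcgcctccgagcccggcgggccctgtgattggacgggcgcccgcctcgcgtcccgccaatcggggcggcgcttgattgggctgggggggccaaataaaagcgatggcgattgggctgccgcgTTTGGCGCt
UHRF1 (chr19:4909974-4910153, plus strand): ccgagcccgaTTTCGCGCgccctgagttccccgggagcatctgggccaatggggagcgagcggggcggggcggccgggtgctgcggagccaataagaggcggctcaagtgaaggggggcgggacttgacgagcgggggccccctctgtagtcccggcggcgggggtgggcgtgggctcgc
DNMT1 (chr19:10194944-10195123, minus strand): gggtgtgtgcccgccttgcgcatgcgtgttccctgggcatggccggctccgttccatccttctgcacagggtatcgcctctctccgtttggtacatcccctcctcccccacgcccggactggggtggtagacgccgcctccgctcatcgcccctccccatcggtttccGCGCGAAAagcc

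Expression is given as FPKM, the reads of a gene scaled by its length and by library depth. Depth lay between 12950666 and 16309556 reads. The libraries of both cancer lines differed from BPH-1 by a trend with the GC content of genes (bases G and C in the longest transcript). Relative to the BPH-1 mean, the median log2 difference of the 931 genes of at most 38% GC was between -3.27 and -1.21 in DU145 libraries and between -2.83 and -1.36 in PC3 libraries. That of the 1093 genes over 62% GC was between 0.24 and 0.98 in DU145 and between 0.37 and 0.70 in PC3. Single BPH-1 libraries departed from their own mean by -0.09 to 0.10, and since that mean is the reference, a trend common to all 4 would not be seen. DU145 replicates 1 and 3 and PC3 replicate 4 stood lowest. The 10 genes fall on both sides of this trend. EED (33.0% GC), SUZ12 (38.03%), BMI1 (39.1%), TET1 (41.0%), EZH2 (42.7%) and TET2 (43.0%) are GC-poor, and DNMT3A (53.7%), DNMT3B (53.9%), UHRF1 (54.6%) and DNMT1 (55.4%) are GC-rich. The log2 fold changes of the 10 genes against BPH-1 are therefore given also with the GC trend of each library divided out, a setting chosen after the data were seen. Of the cell type markers, the epithelial keratins KRT8, KRT18 and KRT19 were expressed in each line, whereas the basal keratin KRT5 had a mean FPKM of 147 in BPH-1, 0.216 in DU145 and 0.0118 in PC3 (at most 4 reads), and EPCAM had 60.8, 0.376 and 9.10. The summed FPKM of these 5 genes was 256 to 346 in BPH-1, 84.3 to 163 in DU145 and 219 to 366 in PC3, where KRT19 gave 232 on average. The luminal prostate genes KLK3 in all lines and KLK2 in DU145 and PC3 were at 0 reads. Summed FPKM of the 5 immune genes was 13.6 to 18.2 in BPH-1, 5.06 to 14.96 in DU145 and 6.92 to 13.5 in PC3, with the T cell gene CD3E at 0 in all lines, and that of the 5 stromal genes was at most 3.98 in any library. Their part in the differences between lines was not tested.

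**Figure D1:**
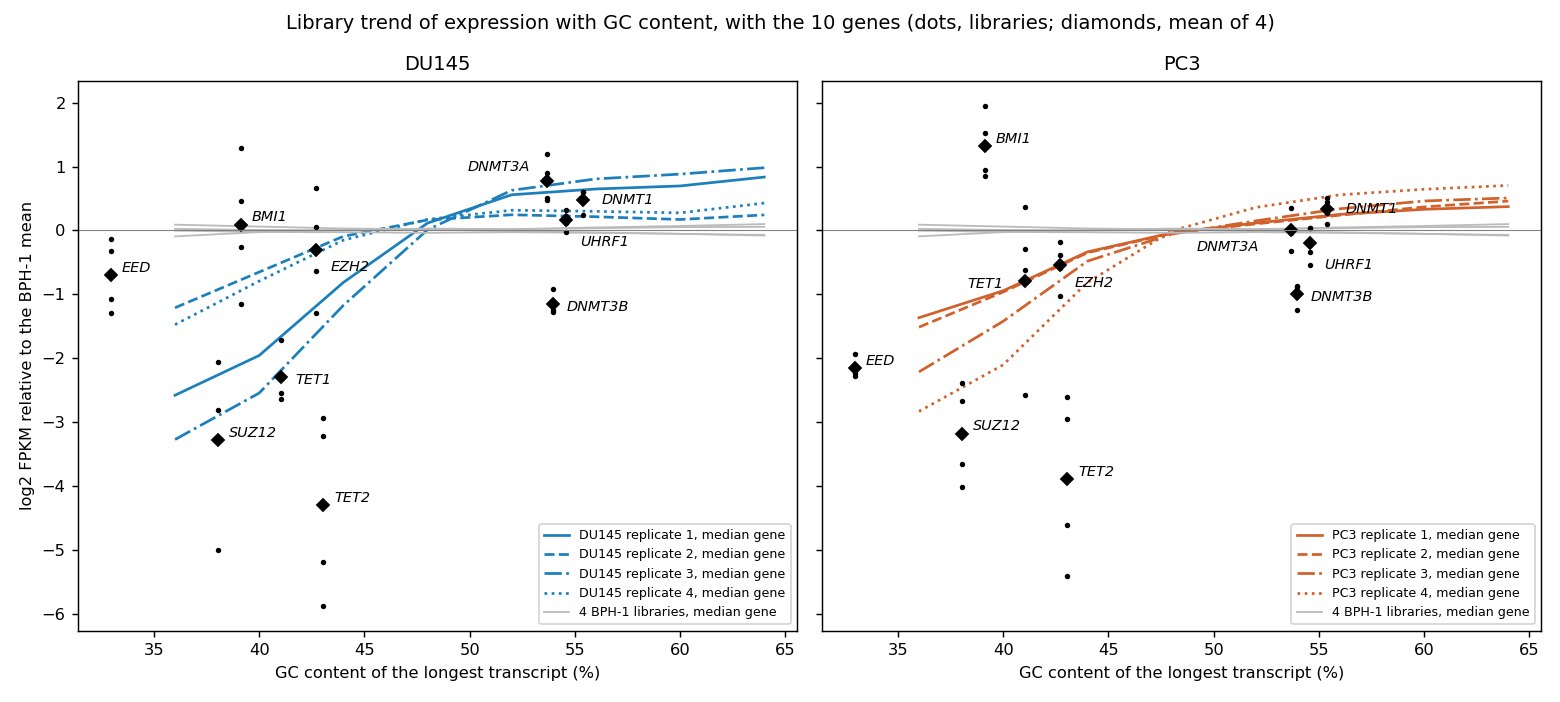
Log2 FPKM relative to the BPH-1 mean (vertical axis) against the GC content of the longest transcript (horizontal axis, percent), for DU145 (left) and PC3 (right). Lines join the medians of genes in GC bins for each library, with the outermost points holding all genes at most 38% or over 62% GC; dots are the 10 genes in each library and diamonds their means of 4. The library lines drop toward GC-poor genes, the means of TET2 and SUZ12 lie below them, that of BMI1 lies above them, and that of DNMT3B lies below them at the GC-rich side.

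DNMT1 and UHRF1 had the highest FPKM of the 10 genes in every line, and a TET gene the lowest. FPKM is per length, here the sum of all distinct exons of a gene, which counts overlapping exons more than once. For EED that sum was 11853 bases against 2767 in its longest transcript, whereas for TET1 both were 9288. The order of genes therefore holds for FPKM as deposited and may differ with another gene length. Mean FPKM was 18.7 ± 1.24 (SD, n = 4) for DNMT1 in BPH-1, 26.1 ± 2.88 in DU145 and 23.6 ± 2.97 in PC3. For UHRF1 it was 17.6 ± 1.85, 19.6 ± 1.93 and 15.5 ± 3.04. In BPH-1 the order went on with SUZ12, EZH2, DNMT3B, BMI1, EED, DNMT3A, TET2 and TET1, where the ranges of the 4 libraries overlapped between DNMT1 and UHRF1, SUZ12 and EZH2, BMI1 and EED, EED and DNMT3A, and DNMT3A and TET2. SUZ12 was the member whose rank differed most. It came next after DNMT1 and UHRF1 in BPH-1 but below EZH2, BMI1, DNMT3A and DNMT3B in both cancer lines. In DU145 the neighbours from EZH2 down to SUZ12 (EZH2, BMI1, DNMT3A, DNMT3B, EED, SUZ12) all overlapped, as did TET2 and TET1. In PC3 the overlapping neighbours were BMI1 and EZH2, DNMT3B and DNMT3A, DNMT3A and SUZ12, and TET1 and TET2. The length behind DNMT1 FPKM did not match the annotation, so its rank rests on the deposited value alone.

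As deposited, all 3 core subunits of PRC2 were called lower in PC3 than in BPH-1, and SUZ12 alone of them in DU145. With the GC trend divided out, SUZ12 alone of the 3 was called lower, in both cancer lines. SUZ12, which holds the complex together, fell steeply in both cancer lines, while the values of EZH2 and EED depended on the GC trend. SUZ12 (ENSG00000178691, GRCh38 chr17:31937018-32001045) had an FPKM of 12.5, 9.49, 13.3 and 12.7 in BPH-1 replicates 1 to 4. DU145 libraries had 1.26, 2.85, 0.372 and 1.69, and PC3 libraries 2.28, 1.87, 0.945 and 0.739. All 8 cancer libraries lay below all BPH-1 libraries, and the 2 cancer lines overlapped. The log2 fold change of FPKM + 1 was -2.44 (SE 0.21) in PC3 against BPH-1 (limma adjusted p = 9.34e-06) and -2.44 (SE 0.29) in DU145 (limma adjusted p = 5.66e-05). With the GC trend divided out the fall was smaller and still called, at -1.06 (limma adjusted p = 5.81e-05) and -1.02 (limma adjusted p = 0.000938). On that scale FPKM spanned 4.20 to 5.44 in BPH-1, 1.26 to 2.77 in DU145 and 1.54 to 2.24 in PC3, again without overlap between benign and cancer lines. SUZ12 has a near-identical pseudogene on the same chromosome, SUZ12P1, and how reads were split between them is not known. SUZ12P1 had a mean FPKM of 2.101 ± 0.17 (SD, n = 4) in BPH-1, 3.34 ± 0.34 in DU145 and 1.28 ± 0.25 in PC3. It rose in DU145 (log2 fold change 0.48, limma adjusted p = 0.0127) where SUZ12 fell, and in PC3 it fell as deposited (-0.45, limma adjusted p = 0.00485) and rose with the GC trend divided out (0.57, limma adjusted p = 0.0136).

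EZH2, the methyltransferase of PRC2, is located at chr7:148807383-148884321 (ENSG00000106462). Its FPKM was 8.88, 9.11, 9.08 and 9.61 in BPH-1, 5.89, 14.6, 3.76 and 9.50 in DU145, and 8.05, 7.05, 6.11 and 4.50 in PC3. The BPH-1 libraries differed by at most 1.08 times, whereas the DU145 libraries differed by up to 3.87 times and straddled all BPH-1 values. PC3 lay below BPH-1 without overlap (log2 fold change -0.48, SE 0.15, limma adjusted p = 0.0193). DU145 gave -0.25 (SE 0.32, limma adjusted p = 0.512). Both signs turned when the GC trend was divided out, with EZH2 then called higher in DU145 (0.62, limma adjusted p = 0.00214) and in PC3 (0.29, limma adjusted p = 0.0174). The spread within DU145 shrank at the same time, to 8.39 to 12.1 against 5.78 to 6.20 in BPH-1. The direction of EZH2 between benign and cancer lines thus rested on the treatment of the GC trend. The pseudogene EZH2P1 held at most 7 reads in a library.

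EED, the subunit that reads the methyl mark, is the most GC-poor of the 10 genes (ENSG00000074266, chr11:86244544-86278813). Its FPKM was 2.62, 2.43, 2.72 and 2.72 in BPH-1, 1.25, 2.38, 1.07 and 2.1003 in DU145, and 0.684, 0.578, 0.560 and 0.541 in PC3. The 3 lines did not overlap, with BPH-1 highest and PC3 lowest. EED fell in PC3 against BPH-1 by 1.19 on the log2 scale (SE 0.09, limma adjusted p = 2.80e-06), and in DU145 the log2 fold change was -0.45 (SE 0.18, limma adjusted p = 0.0528). Dividing out the GC trend left no call in PC3 (0.08, limma adjusted p = 0.581) and turned DU145 to a rise (0.97, limma adjusted p = 8.23e-05). What did not depend on that choice was the difference between the cancer lines. EED was lower in PC3 than in DU145 by -0.73 (SE 0.17, limma adjusted p = 0.00574) as deposited and by -0.89 (SE 0.15, limma adjusted p = 0.00105) with the GC trend divided out. It was called in all 20 alternative fits run, although its change as deposited was under 1 in size.

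BMI1, a ring finger subunit of PRC1 studied for its part in stem cell renewal, rose in PC3. The gene (ENSG00000168283, chr10:22321211-22331484) had an FPKM of 2.18, 2.79, 3.39 and 2.63 in BPH-1, 2.28, 6.65, 1.22 and 3.73 in DU145, and 10.5, 7.79, 5.22 and 4.88 in PC3. Each PC3 library lay above each BPH-1 library, and DU145 overlapped both. The log2 fold change in PC3 against BPH-1 was 1.07 (SE 0.22, limma adjusted p = 0.00179), and it was 2.21 (SE 0.14, limma adjusted p = 1.56e-06) with the GC trend divided out. In DU145 it was 0.11 (SE 0.33, limma adjusted p = 0.780) as deposited and 1.29 (SE 0.14, limma adjusted p = 6.79e-05) with the GC trend divided out, where the 3 lines no longer overlapped (1.03 to 1.4996 in BPH-1, 3.64 to 5.67 in DU145, 7.91 to 12.02 in PC3). BMI1 is GC-poor, on the side where the trend of the cancer libraries lay below 0. BMI1 shares 8332 bases of its locus with the read-through gene COMMD3-BMI1, so reads of both cannot be fully told apart. COMMD3-BMI1 had a mean FPKM of 0.343 ± 0.16 (SD, n = 4) in BPH-1, 0.513 ± 0.33 in DU145 and 1.10 ± 0.43 in PC3. COMMD3, the upstream gene of that read-through, rose in PC3 (0.329 to 2.38, log2 fold change 1.35, limma adjusted p = 9.36e-07) and in DU145 (2.49, log2 fold change 1.39, limma adjusted p = 7.07e-06).

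Among the DNA methyltransferases, DNMT3B fell in both cancer lines, and DNMT1 and DNMT3A differed by less. DNMT3B (ENSG00000088305, chr20:32762385-32809356) had an FPKM of 4.52, 7.77, 4.98 and 4.41 in BPH-1, 2.80, 2.23, 2.40 and 2.17 in DU145, and 2.23, 2.87, 2.89 and 2.67 in PC3. BPH-1 replicate 2 stood above its group, yet the lowest BPH-1 library was still above all 8 cancer libraries. DNMT3B fell by 0.78 on the log2 scale in PC3 (SE 0.17, limma adjusted p = 0.00241) and by 0.89 in DU145 (SE 0.19, limma adjusted p = 0.00228). DNMT3B is GC-rich, on the side where the trend of the cancer libraries lay above 0. With the trend divided out the values were -0.97 (limma adjusted p = 0.000535) and -1.25 (limma adjusted p = 0.000162). Without BPH-1 replicate 2 it stayed called in both lines.

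DNMT3A, the other de novo enzyme (ENSG00000119772, chr2:25227855-25342590), had an FPKM of 1.36, 2.59, 1.76 and 2.30 in BPH-1, 4.42, 2.76, 3.62 and 2.69 in DU145, and 1.99, 1.90, 2.47 and 1.56 in PC3. DU145 lay above both other lines without overlap, and PC3 lay within the span of BPH-1 values. The log2 fold change was 0.54 (SE 0.20, limma adjusted p = 0.0333) in DU145 against BPH-1 and 0.00 (SE 0.16, limma adjusted p = 0.996) in PC3 against BPH-1. After division by the GC trend the DU145 difference was 0.21 (limma adjusted p = 0.229) and no longer called. It was also lost without BPH-1 replicate 1 (0.43, limma adjusted p = 0.104), BPH-1 replicate 3 (0.51, limma adjusted p = 0.0834), DU145 replicate 1 (0.44, limma adjusted p = 0.0951) or DU145 replicate 3 (0.51, limma adjusted p = 0.0613). With GC and transcript length both divided out it was 0.57 (limma adjusted p = 0.0240).

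DNMT1, the maintenance enzyme (ENSG00000130816, chr19:10133345-10231286), had an FPKM of 20.01, 18.8, 17.0 and 18.9 in BPH-1, 28.2, 25.8, 28.2 and 22.1 in DU145, and 26.5, 22.5, 19.9 and 25.4 in PC3. DU145 lay above BPH-1 without overlap, and the lowest PC3 library fell just inside the BPH-1 range. DNMT1 rose as deposited in DU145 (0.46, SE 0.14, limma adjusted p = 0.0185) and in PC3 (0.32, SE 0.11, limma adjusted p = 0.0328). Neither rise held once the GC trend was divided out (-0.02, limma adjusted p = 0.908, and 0.06, limma adjusted p = 0.693), nor when FPKM was rescaled to the same sum per library (0.22, limma adjusted p = 0.227, and 0.06, limma adjusted p = 0.698). In PC3 the call was lost when any of 6 libraries was left out (BPH-1 replicate 2, 3 or 4, PC3 replicate 1, 2 or 4), and in DU145 without BPH-1 replicate 3 (0.42, limma adjusted p = 0.0558) or DU145 replicate 1 (0.42, limma adjusted p = 0.0599). S1PR2, a receptor gene, shares 9838 bases of the locus on the same strand. Its mean FPKM was 2.47 ± 0.50 (SD, n = 4) in BPH-1, 2.76 ± 0.73 in DU145 and 5.47 ± 0.84 in PC3.

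UHRF1, the partner that brings DNMT1 to newly replicated DNA (ENSG00000276043, chr19:4903080-4962154), had an FPKM of 19.3, 14.97, 18.1 and 17.99 in BPH-1, 21.8, 18.9, 20.4 and 17.3 in DU145, and 18.02, 13.8, 12.004 and 18.02 in PC3. All 3 lines overlapped. The log2 fold change was 0.15 (SE 0.15, limma adjusted p = 0.399) in DU145 and -0.19 (SE 0.15, limma adjusted p = 0.288) in PC3 against BPH-1. With the GC trend divided out it was -0.31 (limma adjusted p = 0.0727) and -0.42 (limma adjusted p = 0.0387), so a call for PC3 appeared in that setting.

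TET2 showed the largest fold of mean FPKM between benign and cancer lines of the 10 genes as deposited, whereas with the GC trend divided out BMI1 in PC3 had a larger one (7.61) than TET2 (7.18), and on the fitted log2(FPKM + 1) scale SUZ12 had a larger change than TET2. The gene (ENSG00000168769, chr4:105145875-105279816) had an FPKM of 1.79, 1.60, 1.91 and 1.94 in BPH-1, from 666 to 825 reads. DU145 libraries had 0.0498, 0.236, 0.0309 and 0.194 from 13 to 105 reads, and PC3 libraries 0.297, 0.233, 0.0740 and 0.0424 from 15 to 105 reads. Mean FPKM was 14.2 times higher in BPH-1 than in DU145 and 11.2 times higher than in PC3, with no overlap (9.43 and 7.18 times with the GC trend divided out). The log2 fold change of FPKM + 1, which understates low genes, was -1.32 (SE 0.10, limma adjusted p = 2.95e-06) in DU145 and -1.28 (SE 0.09, limma adjusted p = 2.65e-06) in PC3. It was -0.97 and -0.92 with the GC trend divided out, and -0.81 and -0.77 with GC and transcript length both divided out, called each time. The antisense gene TET2-AS1 was at 0 in all libraries.

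TET1, whose protein binds CG-rich DNA, was low in every line (ENSG00000138336, chr10:68560656-68694482). Its FPKM was 0.307, 0.353, 0.347 and 0.386 in BPH-1 (44 to 56 reads), 0.0598, 0.106, 0.0558 and 0.0722 in DU145 (8 to 16 reads), and 0.283, 0.448, 0.225 and 0.0582 in PC3 (7 to 57 reads). DU145 lay below BPH-1 without overlap, and PC3 spanned both. TET1 fell in DU145 by 0.33 on the log2 scale (SE 0.04, limma adjusted p = 0.000117), by 0.10 with the GC trend divided out (-0.10, limma adjusted p = 0.0352), and without a call when length was divided out too (-0.04, limma adjusted p = 0.434). It passed the filter on low counts through its BPH-1 libraries, so a difference from DU145 was built into its selection. In PC3 against BPH-1 the value was -0.11 (SE 0.09, limma adjusted p = 0.260), and 0.11 (limma adjusted p = 0.192) with the GC trend divided out. A processed pseudogene inside the TET1 locus, COX20P1, had a mean FPKM of 3.53 ± 1.03 (SD, n = 4) in BPH-1, 7.58 ± 1.77 in DU145 and 9.11 ± 2.46 in PC3.

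Across the 10 genes, 5 were called lower and 2 higher in PC3 than in BPH-1 (EZH2, EED, SUZ12, DNMT3B and TET2 lower, BMI1 and DNMT1 higher). Of all 16345 genes tested, 67.6% were called in that comparison (27.2% higher, 40.5% lower), and the median log2 fold change of all genes was -0.13. In DU145 against BPH-1, 4 were called lower (SUZ12, DNMT3B, TET1 and TET2) and 2 higher (DNMT1 and DNMT3A), where 62.6% of 17070 genes were called (30.3% higher, 32.3% lower). TET1 entered that comparison through BPH-1 alone, and without it 3 were lower. Both counts were near the share over all genes, so the number of calls is not particular to these 10 genes. With the GC trend divided out, 6 and 7 were called, against 64% and 63.1% of all genes. With a log2 fold change over 1 in size required as well, 4 were called in PC3 (27.1% of all genes) and 2 in DU145 (28.7%). The libraries of the 2 lines did not overlap for 6 genes in PC3 and 7 in DU145 against BPH-1, where 64.5% and 59.4% of all genes did not. For each of these the exact two-sided permutation test over the 8 libraries gave p = 0.0286, the smallest value that 4 against 4 libraries allow. Rescaling FPKM to the same sum in every library moved the median of all genes to -0.28 in PC3 and from -0.03 to -0.16 in DU145. SUZ12, DNMT3B and TET2 in both lines and BMI1 in PC3 were called in the same direction in all 19 (PC3) or 20 (DU145) alternative fits. The fold threshold is not among these fits, and DNMT3B did not reach it in either line (-0.78 in PC3 and -0.89 in DU145). Both comparisons share the BPH-1 libraries. Fewer cells of a type and less RNA per cell cannot be told apart in such bulk libraries.

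**Figure D2:**
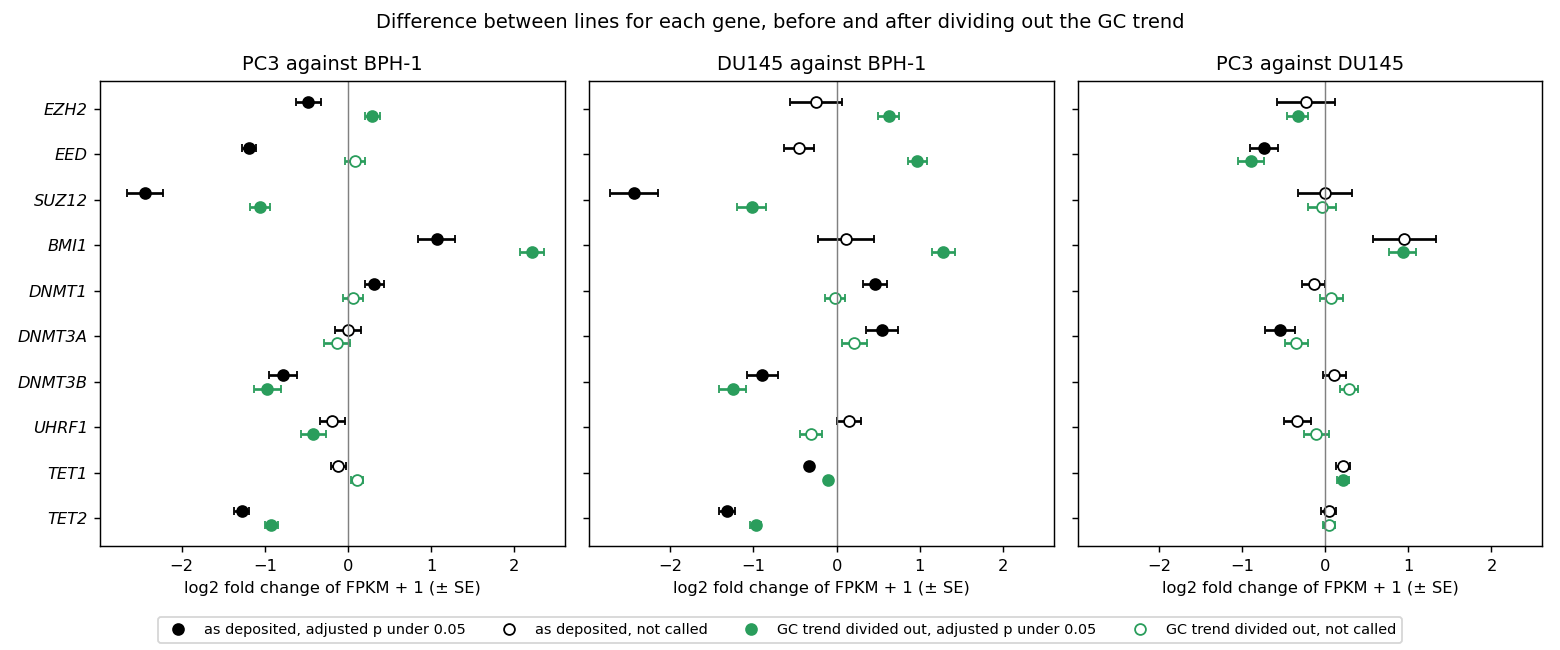
Log2 fold change of FPKM + 1 (horizontal axes, ± SE) of each gene in the 3 comparisons, as deposited (black) and with the GC trend divided out (green); filled points had an adjusted p under 0.05. SUZ12, DNMT3B and TET2 are filled below 0 in both settings against BPH-1, whereas EZH2 and EED move from below to above 0 in the left and middle panels.

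Between the cancer lines, EED and DNMT3A were the 2 genes called, both lower in PC3 than in DU145. All genes gave 48.2% calls (16210 tested, 20% higher, 28.3% lower). Both were also the genes whose libraries did not overlap, as 46.5% of all genes did not. With the GC trend divided out 4 were called (EED, BMI1, TET1 and EZH2, against 58.2% of all genes), with EZH2 lower in PC3 (-0.33, limma adjusted p = 0.0476), and without that division 0 had a called log2 fold change over 1 in size (19.5% of all genes). DNMT3A had a log2 fold change of -0.54 (SE 0.18, limma adjusted p = 0.0312), which was -0.35 (limma adjusted p = 0.0580) with the GC trend divided out and was lost in 10 of 20 alternatives. BMI1 had 0.95 (SE 0.38, limma adjusted p = 0.0652) with overlapping libraries, and was called higher in PC3 with the GC trend divided out (0.93, limma adjusted p = 0.00136) and without DU145 replicate 2 (1.26, limma adjusted p = 0.0133). TET1 had 0.21 (SE 0.08, limma adjusted p = 0.0631) and was called higher in PC3 with the GC trend divided out (0.21, limma adjusted p = 0.0323) and without PC3 replicate 4 (0.29, limma adjusted p = 0.00553). With 34, 57, 29 and 7 reads in PC3 and 9, 16, 8 and 9 in DU145, TET1 passed the filter mostly through PC3. Without PC3 replicate 4 it passed through PC3 alone, so a higher PC3 value was in part built into its selection. SUZ12 and TET2, both far below BPH-1 in each cancer line, gave 0.00 (SE 0.33) and 0.04 (SE 0.09) between them, so a difference of SUZ12 below this spread could not have been seen.

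Ratios of 2 genes within a library do not depend on how libraries are scaled, and between the GC-rich genes they hardly moved when the GC trend was divided out. The 6 pairs shown were chosen after the values were seen and are given without a test. DNMT3B over DNMT3A had a median of 2.92 in BPH-1 (1.92 to 3.33), 0.731 in DU145 (0.632 to 0.807) and 1.33 in PC3 (1.12 to 1.71). Which of the 2 de novo enzymes prevailed within a line is not shown, since the size of the ratio depends on the gene lengths behind FPKM. Between lines the ratio was highest in BPH-1 and lowest in DU145, without overlap. As a difference of mean log2 ratios this was -1.91 (SE 0.20) in DU145 and -1.003 (SE 0.23) in PC3 against BPH-1, and -1.92 and -1.01 with the GC trend divided out. UHRF1 over DNMT1 had medians of 0.959 in BPH-1, 0.752 in DU145 and 0.647 in PC3, again without overlap. Its difference from BPH-1 was -0.32 (SE 0.09) in DU145 and -0.53 (SE 0.10) in PC3, so the partner was low against the enzyme although neither level alone gave a call that held in every setting. SUZ12 over EZH2 dropped from a median of 1.36 in BPH-1 to 0.187 in DU145 and 0.209 in PC3, and its difference from BPH-1 moved from -2.98 to -2.08 in DU145 and from -2.63 to -1.75 in PC3 with the GC trend divided out. EED over EZH2 had medians of 0.289, 0.217 and 0.0882, and with the GC trend divided out the difference from BPH-1 moved from -1.61 to -0.21 in PC3 and turned from -0.40 to 0.88 in DU145. BMI1 over EZH2 had medians of 0.289, 0.390 and 1.09, so the 2 genes were near each other in FPKM in PC3 alone among the 3 lines. TET2 over TET1 had medians of 5.25, 1.36 and 0.616.

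**Figure D3:**
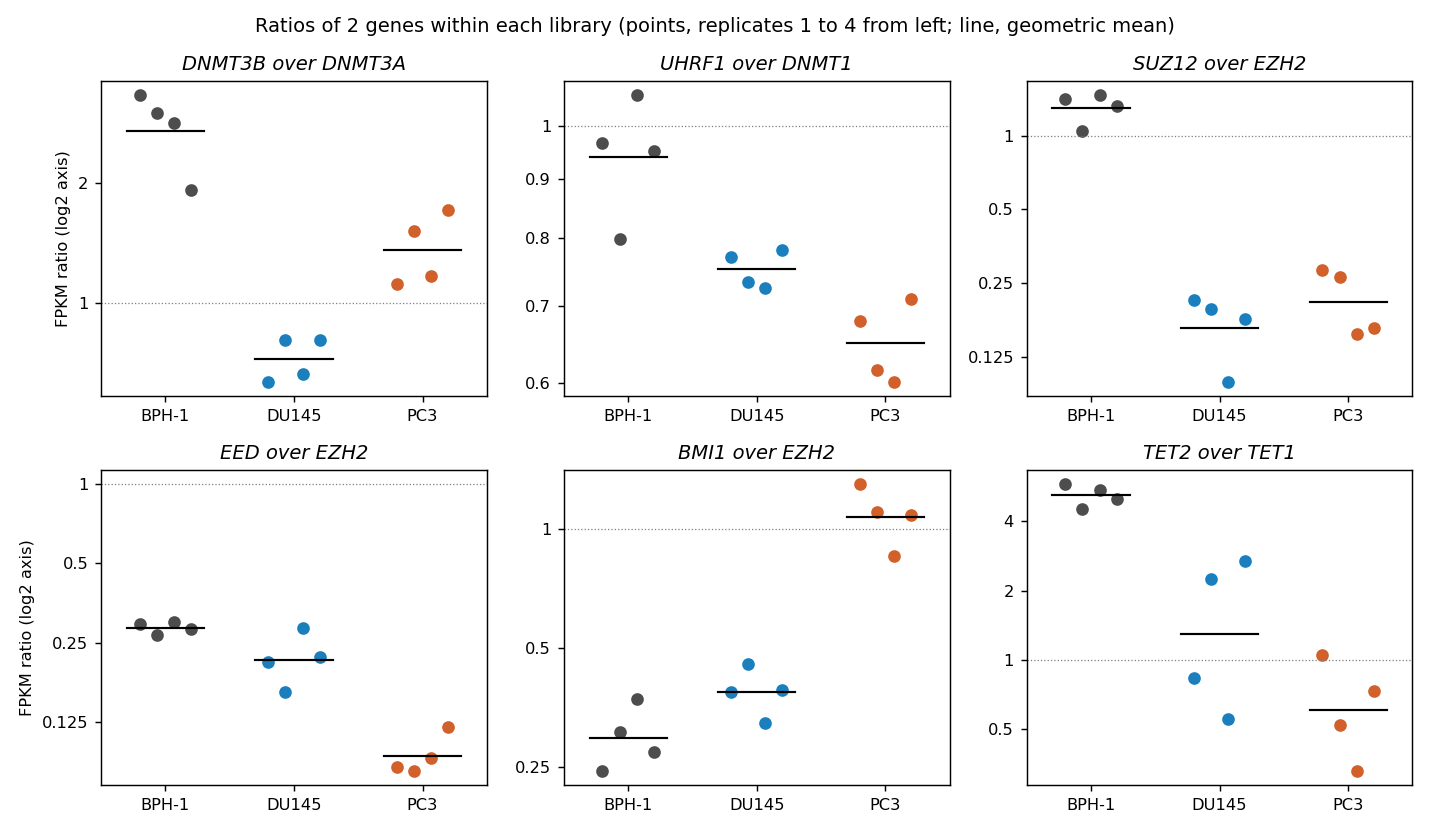
FPKM ratios of 2 genes within each library (vertical axes, log2 scale) for BPH-1, DU145 and PC3; points are replicates 1 to 4 from left and lines are geometric means. DNMT3B over DNMT3A and UHRF1 over DNMT1 separate all 3 lines, with DU145 libraries at 0.632 to 0.807 for the first.

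Other genes of the same pathways were taken from lists of known subunits, enzymes, readers and targets, all chosen with earlier results of these data known. Of 9 other PRC2 subunits tested, 2 were higher and 5 lower in PC3 (median log2 fold change -0.37, against -0.13 over all genes), and 3 were higher and 4 lower in DU145 (median -0.56, against -0.03). Of all genes, 27.2% were called higher and 40.5% lower in PC3, and 30.3% and 32.3% in DU145. With the GC trend divided out the counts of these subunits became 4 higher and 4 lower in PC3, and 5 higher and 3 lower in DU145. LCOR, a PRC2-associated corepressor, fell in PC3 (-1.71, limma adjusted p = 1.01e-05) and in DU145 (-1.67, limma adjusted p = 0.000114), and MTF2, which recruits PRC2 to CG-rich DNA, fell likewise (-1.35 and -1.63). Both stayed called with the GC trend divided out, and AEBP2, another accessory subunit (-1.67 and -1.59 as deposited), did not.

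Of 26 other PRC1 subunits tested, 10 were higher and 8 lower in PC3, and 10 were higher and 7 lower in DU145 (all genes 27.2% higher and 40.5% lower in PC3, 30.3% and 32.3% in DU145). Dividing out the GC trend gave 11 higher and 8 lower in PC3, and 12 higher and 7 lower in DU145. The lower counts include AUTS2, with a mean FPKM of 1.12 in BPH-1, 0.00925 in PC3 and 0.000881 in DU145. It passed the filter on low counts through BPH-1 alone, so its fall was built into its selection. PHC2, a Polyhomeotic subunit, had the largest rise of them, from a mean FPKM of 5.25 in BPH-1 to 32.0 in PC3 (2.40, limma adjusted p = 9.06e-08) and 25.9 in DU145 (2.07, limma adjusted p = 1.69e-05), and it stayed called in both at 2.01 and 1.58 with the GC trend divided out. CBX2, a reader of the PRC2 mark, rose in PC3 (0.94) and fell in DU145 (-1.26), and PC3 exceeded DU145 by 2.19 (SE 0.18, limma adjusted p = 1.18e-05), which was 2.24 with the GC trend divided out. MGA, which joins a variant PRC1, fell in both lines (-1.36 in PC3, -1.88 in DU145), and stayed called at -0.67 and -1.27 with the GC trend divided out. Of 6 histone enzymes that act against Polycomb, 2 were higher and 4 lower in PC3, and 2 were higher and 3 lower in DU145 (2 and 4, and 2 and 2, after division by the GC trend). KDM6A, which removes the mark that EZH2 places, fell in PC3 (-1.38, limma adjusted p = 0.000173) and DU145 (-1.54, limma adjusted p = 0.00168), and stayed called with the GC trend divided out. ASXL2, a partner of the deubiquitinase BAP1, fell in both (-1.69 and -2.16) and likewise stayed called. USP16, which deubiquitinates histone H2A, fell in both as deposited (-2.02 and -1.64), but in DU145 the value was 0.01 (limma adjusted p = 0.949) with the GC trend divided out.

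All 5 other DNA methylation genes tested were called lower in both lines as deposited. Of all genes, 27.2% were called higher and 40.5% lower in PC3, and 30.3% and 32.3% in DU145. The median log2 fold change of the 5 genes was -1.10 in PC3 and -1.21 in DU145, against -0.13 and -0.03 over all genes. With the GC trend divided out 2 and 3 of the 5 were still called lower. HELLS, the helicase that opens chromatin for DNA methylation, fell from a mean FPKM of 9.20 in BPH-1 to 0.752 in PC3 (-2.57, limma adjusted p = 3.28e-06) and 1.39 in DU145 (-2.20, limma adjusted p = 0.000133), and stayed called in both. CDCA7, its partner, fell as deposited (-1.26 and -1.25) and had -0.17 and -0.07 with the GC trend divided out. UHRF2, the relative of UHRF1, fell in both (-0.76 and -1.21), and in PC3 it was not called with the GC trend divided out (-0.34, limma adjusted p = 0.106). DNMT3L, a catalytically inactive cofactor, was at 0 reads in all 12 libraries, where a count of 0 allows up to 3 reads. Of 6 other demethylation genes tested, 1 was higher and 3 lower in PC3, and 1 higher and 1 lower in DU145 (2 and 1 in each line after division by the GC trend). IDH2, a source of the TET cofactor 2-oxoglutarate, rose in PC3 (0.91, limma adjusted p = 0.00331) and in DU145 (1.33, limma adjusted p = 0.00123), at 0.65 and 0.86 after division by the GC trend. TDG, the glycosylase that removes oxidised methylcytosine, fell as deposited (-1.05 and -1.67) and had 0.07 and -0.60 with the GC trend divided out. CXXC5, a CXXC domain protein, was higher in PC3 than in DU145 (0.91, limma adjusted p = 0.0419). Of 8 methyl-CpG readers, 1 was higher and 4 lower in PC3, and 1 higher and 3 lower in DU145, against 67.6% and 62.6% of all genes called in either direction. After division by the GC trend these were 1 and 5 in PC3, and 0 and 3 in DU145. ZBTB33, the reader also called Kaiso, fell from a mean FPKM of 15.1 in BPH-1 to 1.54 in PC3 (-2.76, limma adjusted p = 2.18e-05) and 0.566 in DU145 (-3.40, limma adjusted p = 1.10e-06), and had -1.35 and -2.09 after division by the GC trend. MBD4 fell in both lines (-1.35 and -1.34, then -0.76 and -0.72), and ZBTB38 fell in PC3 (-1.12, limma adjusted p = 7.15e-07, then -0.66).

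Genes that these enzymes are known to silence went in different directions. Of 10 genes often promoter-methylated in PCa, 8 were tested, and 6 were lower and 1 higher in each cancer line, where 40.5% of all genes were lower in PC3 and 32.3% in DU145 (median log2 fold change -1.24 in DU145 and -1.19 in PC3). After division by the GC trend 7 and 6 were lower. CCND2, a D-type cyclin, had a mean FPKM of 44.6 in BPH-1, 0.0242 in PC3 (2 to 3 reads) and 0.124 in DU145 (3 to 29 reads). TIMP3, an inhibitor of matrix metalloproteinases, had a mean FPKM of 4.85 in BPH-1 and 0.00335 in DU145 and was at 0 in all PC3 libraries. PTGS2, the inducible cyclooxygenase, had a mean FPKM of 8.33 in BPH-1, 0.0197 in DU145 (1 to 4 reads) and 5.90 in PC3. CCND2 and TIMP3 in both comparisons and PTGS2 in DU145 passed the filter on low counts through BPH-1, where they are high, so their differences were built into their selection and are given as levels. The counts and medians above include these genes and so cannot be weighed against the share over all genes. The other genes called lower as deposited were GSTP1, APC and CD44 in both lines and CDKN2A in PC3. RASSF1 was the member higher in both lines, at 1.04 in PC3 (limma adjusted p = 0.000120) and 1.75 in DU145 (limma adjusted p = 3.63e-05). With the GC trend divided out RASSF1 stayed called at 0.67 and 1.33. Of 6 prostate genes described as repressed by EZH2, 4 were tested. In PC3 1 was higher and 1 lower, and in DU145 2 were higher and 2 lower. Of all genes, 27.2% were called higher and 40.5% lower in PC3, and 30.3% and 32.3% in DU145. With the GC trend divided out 1 of the 4 was higher and 3 lower in PC3, and 1 higher and 2 lower in DU145. CDH1, the epithelial cadherin, fell from a mean FPKM of 28.4 to 0.786 in PC3 (-3.98, limma adjusted p = 2.77e-06) and 0.180 in DU145 (-4.55, limma adjusted p = 8.85e-07). SLIT2, an axon guidance ligand, rose in PC3 to 21.1 from 0.116 (4.23, limma adjusted p = 7.41e-07). SLIT2 is also among the genes counted lower in DU145, where it had at most 4 reads against 24 to 35 in BPH-1. It passed the filter in that comparison through BPH-1 alone, so that fall was built into its selection. None of 8 germline genes held silent by DNA methylation passed the filter in any comparison, and they had at most 9 reads in a library. Of 12 proliferation genes, 1 was higher and 10 lower in PC3, and 1 higher and 7 lower in DU145 (9 and 8 lower with the GC trend divided out), where 40.5% and 32.3% of all genes were lower. MKI67 fell in PC3 (-3.15, limma adjusted p = 0.000240) and DU145 (-4.25, limma adjusted p = 0.000144), and TOP2A (-4.30 and -4.37) and BUB1 (-1.49 and -2.37) fell too. E2F1 was the gene that rose in both lines (0.88 in PC3, limma adjusted p = 0.000111, and 1.02 in DU145, limma adjusted p = 0.00117). It is GC-rich (62.5%), and with the GC trend divided out its rise was smaller and still called, at 0.38 and 0.46. MCM5, a replication gene, was not called in either line as deposited (-0.08 in PC3 and 0.16 in DU145). The part of proliferation in the members' differences was not tested.

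**Figure D4:**
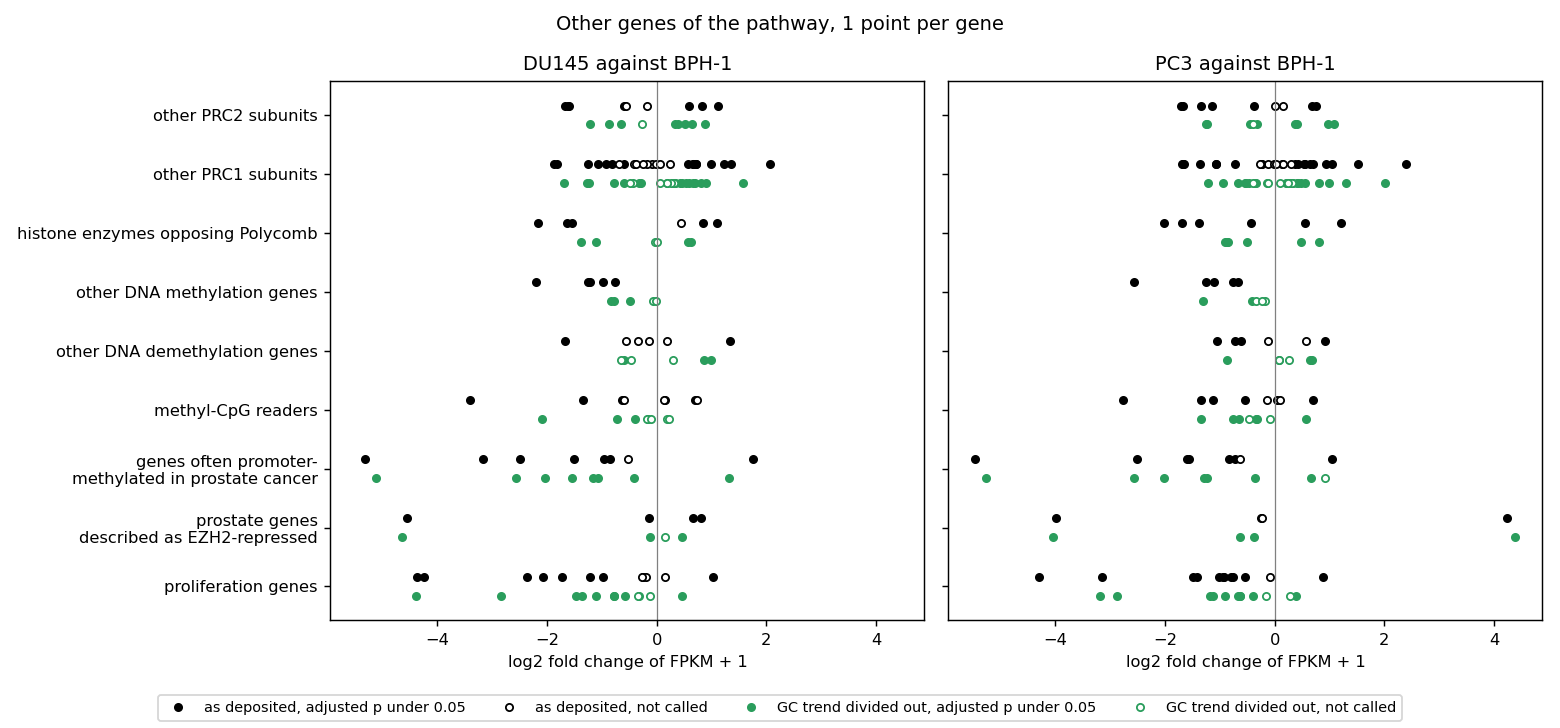
Log2 fold change of FPKM + 1 (horizontal axes) of each other gene of the pathway lists (rows) in DU145 (left) and PC3 (right) against BPH-1, as deposited (black) and with the GC trend divided out (green); filled points had an adjusted p under 0.05. The other DNA methylation genes lie left of 0 in both panels as deposited, and several of their green points are open.

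For each member the nearest profiles were sought among 10500 protein-coding genes with a mean FPKM of at least 1 over the 12 libraries. Distance was the root mean square difference of centred log2(FPKM + 1) over the same libraries. The nearest to TET2 were ZNF614 (distance 0.0632) and NBEAL1 (0.0723), which had mean FPKM of 2.64 and 2.52 in BPH-1 and at most 0.467 in either cancer line. The nearest to SUZ12 were TRPM7 (0.123) and HAUS6 (0.141), and those to EED were AC011043.1 (0.0794) and PAFAH1B1 (0.102). TRPM7 (39.6% GC) and HAUS6 (38.2%) are GC-poor like SUZ12. For EZH2 they were PATL1 (0.130) and ACBD5 (0.132), and for BMI1 CENPL (0.227) and FAM49B (0.232), the most distant pair. DNMT1 was nearest to ESPL1 (0.0920) and SNX11 (0.0995), DNMT3A to MYCL (0.124) and CREB3L4 (0.139), DNMT3B to LARGE2 (0.105) and AP1G2 (0.140), UHRF1 to SRCAP (0.120) and KDM4A (0.130), and TET1 to MCTS1 (0.111) and DIS3L2 (0.113). No member had another member among its nearest genes, but TET1 and TET2 were below the level required and could not have been found.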

How the data were processed

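RNA-sequencing libraries of 3 prostate cell lines (4 each) were analysed, with every column assigned by its name (0 were unassigned). Values for 58302 genes on GRCh38, as deposited by the authors, were read as FPKM, a unit that the header does not name. The submitters' processing notes list CASAVA 1.8, HISAT2 2.1.0 and edgeR without their roles. The counting program, use of strand and any filter are not given in the sources used here. Gene length was the sum of distinct exons in GENCODE 29 (263 genes had none and were left out). With it, 92.1% to 93.6% of low values came out whole within 0.02 reads, against 15.9% to 19.2% with merged exons. This gave the depth and the reads used for filters and limits, which cover counting error only.

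Because the table held no counts, limma 3.58.1 (R 4.3.3, intensity trend) was fitted to log2(FPKM + 1) over the 2 lines compared, with Benjamini-Hochberg adjustment over all genes tested and calls at 0.05. Genes needed 10 reads at the median depth in at least 4 libraries and 15 in all. Members, lists and pairs were chosen with earlier results of these data known. Named list genes are the up to 3 with the largest called change and a mean FPKM of at least 1 in a line, and genes that overlap or copy a member and the 2 nearest profiles were named too. Others were chosen after their values were seen. Alternatives were a pseudocount of 0.1, other filters and scalings, a replicate block, 1 fit over 3 lines, a fold threshold, exact permutation tests and leaving out libraries. Added after the data were seen were voom on recovered reads and division of each library by its spline (5 degrees of freedom, genes of at least 50 reads) of log2 FPKM on GC content, alone or with length, which also removes real differences that follow GC. Fits were tested on simulated data. Replicate numbers did not pair libraries (correlations -0.69 to 0.56). No 2 libraries of a line were near-copies (18 pairs, chi-square per gene 17.3 to 215). Python 3.11.15, scipy 1.17.1 and matplotlib 3.10.9 were also used. Some genes of the lists and markers are not reported here by name.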

Additional observations from a re-analysis of the deposited data

Results flagged for a closer look

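Of 33 groups of 4 libraries examined (10 genes and the summed FPKM in each line), 2 held a library far from the others by Dixon's criterion, which chance gives in about 5% of groups. DNMT3B had an FPKM of 7.77 in BPH-1 replicate 2, where the other BPH-1 libraries had 4.41 to 4.98. The summed FPKM of DU145 replicate 4 was 302456, above the other DU145 libraries. The cancer lines differed by test in EED, with a log2 fold change of -0.73 in PC3 against DU145 (limma adjusted p = 0.00574), and in DNMT3A, with -0.54 (limma adjusted p = 0.0312). BPH-1 libraries enter both benign comparisons, so these differences between the cancer lines were tested directly and not through BPH-1.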

How the results depend on the processing

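Of 587 member values recomputed, 488 kept their direction and side of the threshold, 36 lost a call, 26 gained one and 37 turned sign; where no construction is named, the cause was not tested. Requiring a log2 fold change over 1 in size left 4 members called in PC3 against BPH-1, 2 in DU145 against BPH-1 and 0 in PC3 against DU145. In PC3 against DU145, 4 were called in 1 fit over 3 lines, 4 with the GC trend divided out, and 1 to 3 with a library left out (1 without DU145 replicate 1 or 3 or PC3 replicate 1 or 2).

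The replicate numbers did not pair the libraries, and the replicate block gave 7 calls in PC3 against BPH-1, 4 in DU145 against BPH-1 and 1 in PC3 against DU145, where 7, 6 and 2 were called without it.

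Division by the GC trend turned PC3 against BPH-1 to 0.29 for EZH2, 0.081 for EED, -0.13 for DNMT3A and 0.11 for TET1, and with length divided out too to 0.23 for EZH2 and 0.15 for TET1. DU145 against BPH-1 turned to 0.62 for EZH2, 0.97 for EED, -0.017 for DNMT1 and -0.31 for UHRF1, and with length to 0.55 for EZH2, 0.81 for EED and -0.22 for UHRF1. DNMT1 in PC3 against DU145 turned to 0.075, and with length to 0.0069. The same sum per library gave -0.18 for DNMT3A in PC3 and -0.071 for BMI1 and -0.088 for UHRF1 in DU145, each against BPH-1. SUZ12 in PC3 against DU145, near 0 throughout, was 0.070 with log2(FPKM + 0.1), 0.071 with median-of-ratios and 0.021 with upper-quartile scaling, and 0.098 with voom. Leaving out libraries moved uncalled values across 0, with ranges against BPH-1 of -0.11 to 0.093 for DNMT3A in PC3, and in DU145 of -0.54 to 0.33 for EZH2 and -0.19 to 0.69 for BMI1. In PC3 against DU145 they were -0.67 to 0.059 for EZH2, -0.29 to 0.23 for SUZ12 and -0.021 to 0.091 for TET2. TET1 has no value under the stricter filter. Depth limits TET1 and TET2, with under 20 reads in some cancer libraries.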
